A study of Mus musculus with 60 samples.

Results

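The 36 nuclear genes whose names mark them as subunits of mitochondrial complex I were followed across genotype and drug in the prefrontal cortex of young mice. They are every gene of the table whose mouse symbol is Ndufa, Ndufb, Ndufc, Ndufs or Ndufv followed by a number, 36 of 18088 genes, and assembly factors (Ndufaf) are not among them. All 36 passed the filter on low values, as did 17807 genes in all. The RNA came from 60 C57BL/6J mouse libraries in 12 groups of 5. Each group combined a genotype, a treatment and a sex: wild type (WT) or heterozygous Chd8+/N2373K (Het), given vehicle, fluoxetine or lithium, male or female. Chd8 encodes a chromatin remodeller whose mutation is linked to autism. The N2373K allele was carried by all Het mice in every treatment. Treatment ran from postnatal day 3 to 24, over 3 weeks, and reached the pups in the mother's milk; the tissue was taken on postnatal day 25. The dose that reached a pup is not given. Litters are not given either, so a p-value here measures only the spread between these libraries, some of which may share a mother.

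Complex I, or NADH:ubiquinone oxidoreductase, takes electrons from NADH, passes them to ubiquinone and pumps protons across the inner mitochondrial membrane. Its peripheral arm reaches into the matrix and holds the flavin and iron-sulfur clusters on core subunits that are shared with bacteria, while the membrane arm pumps protons through core subunits encoded in mitochondrial DNA. Accessory subunits, all encoded in the nucleus in mammals, surround both arms, stabilise the complex and take part in its assembly. Neurons draw much of their ATP from this chain, and inherited loss of core or accessory subunits such as NDUFS4 causes Leigh syndrome, a disease of the infant brain.

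The members were described in 4 groups by their place in the complex. The 7 core genes of the peripheral arm include Ndufv1, Ndufv2, Ndufs1 and Ndufs3. Another 9 genes encode accessory subunits of the peripheral arm (Ndufv3, Ndufs4, Ndufs6, Ndufa2, Ndufa5, Ndufa6, Ndufa7, Ndufa9 and Ndufa12). A further 9 encode accessory subunits of the part of the membrane arm next to the peripheral arm (Ndufa1, Ndufa3, Ndufa8, Ndufa10, Ndufa11, Ndufa13, Ndufs5, Ndufc1 and Ndufc2). The distal membrane arm had 10 (Ndufb2 to Ndufb11). The symbol Ndufa4 meets the naming rule, but its protein is now regarded as a subunit of complex IV, so it was kept apart. Ndufb4, Ndufa11 and Ndufs6 have annotated near-copies (Ndufb4c, Ndufa11b and Ndufs6b), and how reads were divided between copies is not given, so their values are uncertain.

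Values are normalized counts, which are reads per gene divided by a scaling factor of the library. The libraries held 24.1 to 31.6 M counted reads, and the lowest value of any member in any library was 256 normalized counts, for Ndufb4. Chd8 itself checked the genotype labels. Its normalized count ran from 2977 to 3276 in the 10 WT vehicle libraries (median 3105) and from 2473 to 2826 in the 10 Het vehicle libraries (median 2631), and these did not overlap. The lithium libraries did not overlap by genotype either (WT 2989 to 3220, Het 2520 to 2830), whereas under fluoxetine the WT libraries at 2951 to 3285 and the Het libraries at 2421 to 3072 did. Neuronal and glial marker genes of cortex were detected in all 60 libraries. Markers of olfactory bulb, a tissue outside prefrontal cortex, varied widely: their summed level ran from 1617 to 30040. Dcx, 1 of these markers, was at 1349 to 10368, so the sum does not measure tissue from outside cortex alone. In 16 libraries the mean centered log2 value of the olfactory bulb markers was above 1. Of these 5 were Het vehicle, 5 Het fluoxetine, 3 WT vehicle, 2 WT lithium and 1 Het lithium libraries. Other markers varied widely too. Summed levels ran from 5245 to 27330 for striatal projection neurons, 103.6 to 15700 for choroid plexus and 34830 to 230900 for oligodendrocytes and myelin. No libraries were left out for these markers, and their part in the results was not tested. In 5 libraries the slope of gene level on transcript length was below -0.05 or above 0.05 log2 units per doubling of length. Short transcripts were most favoured in Het vehicle male 3 and Het fluoxetine female 2, both with a slope of -0.07. Complex I genes are short, with a median transcript length of 891.5 bases against 2861 for all genes tested, so results resting on these libraries are given with and without them.

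In WT vehicle cortex the 36 genes differed widely in level per length. Levels are given here as normalized counts per kilobase of the longest principal transcript, as mean ± SD over 10 libraries. Ndufa4 was highest at 6011 ± 317. Among the subunits of complex I, Ndufb9 at 4126 ± 159 and Ndufb8 at 3626 ± 101, both of the distal membrane arm, came first. Their ranges, 3832 to 4329 and 3487 to 3780, did not overlap. Ndufb10, of the same arm, had 2514 ± 118. Most members lay close together. Ndufs5, Ndufa6 and Ndufa11 overlapped one another at 2128 ± 57.2, 2075 ± 97.7 and 2028 ± 73.9, as did neighbouring genes further down the order. Among the core genes were Ndufs3 at 1857 ± 90.5, Ndufv1 at 1830 ± 96.2, Ndufs1 at 1575 ± 25.2, Ndufv2 at 1301 ± 60.02, Ndufs8 at 1294 ± 52.1 and Ndufs7 at 1040 ± 64.8. At the low end stood Ndufs4 at 751.4 ± 67.4, Ndufv3 at 639.8 ± 23.7 and Ndufb4 at 312.7 ± 20.1. Ndufb2 and Ndufc1 were not placed in this order, since the lengths of their principal transcripts differ several-fold (455 and 4371 bases for Ndufb2, 315 and 1249 for Ndufc1). Smaller differences make the places of Ndufs5 (525 and 680 bases), Ndufs7 (758 and 983) and Ndufs8 (780 and 1005) uncertain too.

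The spread between libraries of a group was small for most members and varied by group. The coefficient of variation over 5 WT vehicle males had a median over the 36 genes of 4.11%, from 0.994% for Ndufs1, which encodes the largest core subunit, to 10.2% for Ndufc1. In Het vehicle males the median was 10.7%, and the range ran from 4.16% for Ndufs1 to 24.4% for Ndufa4. The wide spread in that group came with 1 library, replicate 3, in which 8 of the 36 genes were set off from the other 4 libraries. Its complex I score, the mean over the 36 genes of the log2 value centered on the 60-library mean, was 0.201, while the other 9 Het vehicle libraries had scores of at most -0.03. Het vehicle males enter as controls in the drug comparisons of Het males below.

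The first comparison asked whether the Chd8 mutation alone moved these genes. With vehicle, none of the 36 passed the test between Het and WT in males, in females or as the average over both sexes. The test was limma on log2(value + 1), with p adjusted by the Benjamini-Hochberg method over all genes tested in a comparison, and a gene was called at an adjusted p under 0.05. Of all genes tested, 0.0168% were called in males, 0.0225% in females and 0.0562% as the average, so the genotype moved few genes of any kind by this test. At an unadjusted p under 0.05 there were 2 members in males, none in females and 1 as the average, and edgeR and DESeq2 called none either. Over both sexes the 36 log2 differences had a median of 0.01 and ran from -0.07 for Ndufb5 to 0.11 for Ndufa2. Among lithium-treated mice the result was alike: 0 of 36 were called in males, females or the average by limma, edgeR or DESeq2, with 0, 1 and 2 members respectively at an unadjusted p under 0.05 in limma. The percent of all genes called was 0.00562% in males, 0.0168% in females and 0.0393% as the average.

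Ndufa6 shows how close the vehicle groups were. It encodes an accessory subunit of the LYR protein family in the peripheral arm. Its values were 1130 to 1312 (median 1210) in the 10 WT vehicle libraries and 1173 to 1437 (median 1278) in the 10 Het vehicle libraries. Its adjusted p in males, 0.557 in limma, was the smallest of the members there. Ndufa6 stayed in one band under both drugs as well, at 1160 to 1372 with lithium and 1203 to 1401 with fluoxetine in WT, and at 1204 to 1368 and 1212 to 1450 in Het. It was called in no comparison.

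With lithium, complex I genes were higher than with vehicle in both genotypes. Averaged over both sexes, 10 of 36 members rose in WT and 21 of 36 rose in Het, and none fell. The background was lower: 1.90% of all genes tested rose in WT and 5.30% in Het. The changes were small and shared. All 36 log2 fold changes were positive in WT and 35 of 36 in Het, with medians of 0.12 and 0.14, against -0.004 and -0.002 over all genes tested. At an unadjusted p under 0.05 there were 31 members in WT and 29 in Het. These counts describe the list and are no test of it. Leaving out 1 library moved the WT count to 6 (WT vehicle male 5) or 16 (WT lithium male 5) at the extremes. In RNA from whole tissue, fewer cells of a type and less RNA per cell cannot be told apart, nor can their opposites.

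**Figure D1:**
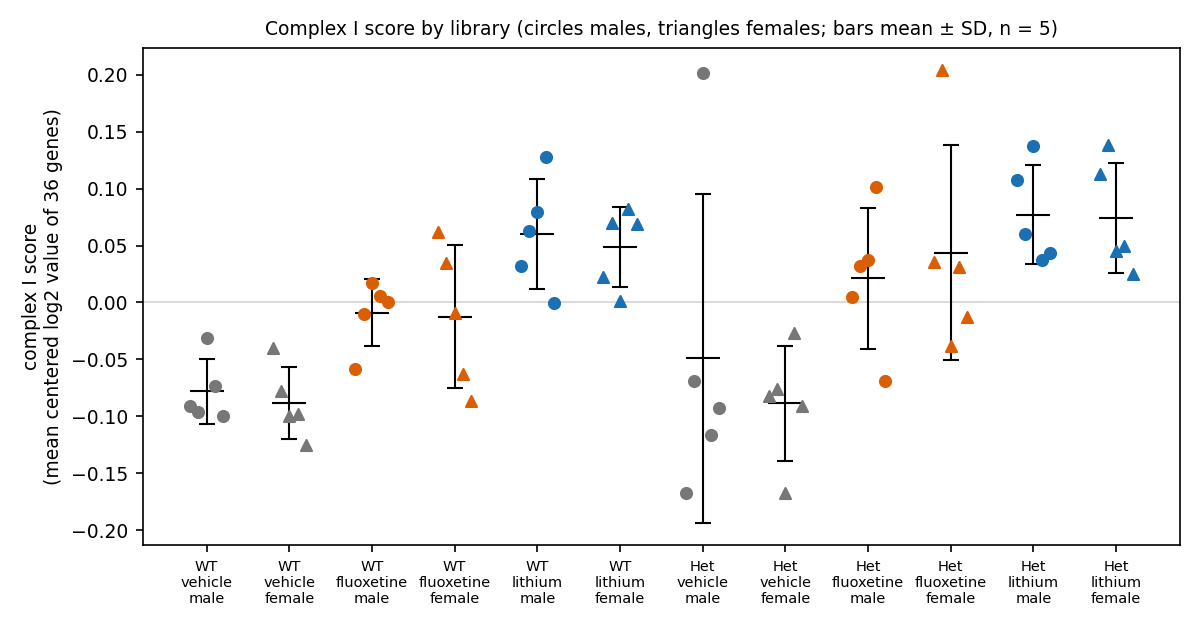
Mean centered log2 value of the 36 genes (the complex I score) in each of the 60 libraries, by genotype, treatment and sex, with the line at the group mean. The WT lithium libraries lie at -0.0007 to 0.13, all above the WT vehicle libraries at -0.13 to -0.03, whereas Het vehicle male 3 at 0.20 lies above every Het lithium library.

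The complex I score gives the same picture by library. In WT it ran from -0.13 to -0.03 with vehicle (median -0.09) and from -0.0007 to 0.13 with lithium (median 0.07). No lithium-treated WT library was as low as any vehicle library. In Het it ran from -0.17 to 0.20 with vehicle (median -0.09) and from 0.02 to 0.14 with lithium (median 0.05). Only Het vehicle male 3 stood within or above the lithium range, and the other 9 were below it. The summed normalized count of the 36 genes was 57320 to 60950 with vehicle and 61700 to 67310 with lithium in WT.

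Every structural group took part in the lithium difference. Of the 7 core genes of the peripheral arm, 2 rose in WT (Ndufs7 and Ndufv2) and 5 in Het (Ndufs3, Ndufs7, Ndufs8, Ndufv1 and Ndufv2). Among the 9 accessory genes of that arm, Ndufs4 rose in WT, and Ndufa5, Ndufa9, Ndufa12, Ndufs4 and Ndufv3 in Het. In the proximal membrane arm 4 of 9 rose in WT (Ndufa1, Ndufa11, Ndufc1 and Ndufc2) and 5 of 9 in Het (Ndufa3, Ndufa8, Ndufa11, Ndufc2 and Ndufs5). The distal arm had 3 of 10 in WT (Ndufb5, Ndufb6 and Ndufb7) and 5 of 10 in Het (Ndufb5, Ndufb6, Ndufb8, Ndufb9 and Ndufb11). Ndufa4 rose in Het. Ndufa11, Ndufb5, Ndufb6, Ndufc2, Ndufs4, Ndufs7 and Ndufv2 rose in both genotypes. They are 70% of the WT calls and 33.3% of the Het calls. The comparisons share no libraries, but the overlap among all genes called was not counted.

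Ndufb6, Ndufa11 and Ndufv2 showed the WT difference without any overlap over 10 libraries a group. How many of all genes tested separated in this way was not counted. Ndufb6, an accessory subunit that spans the membrane in the distal arm, had 749.5 to 879.1 normalized counts with vehicle (median 830.9) and 885.8 to 1044 with lithium (median 950.8). The log2 fold change was 0.21 ± 0.04 (SE), with an adjusted p of 0.00426 in limma. Every lithium library was thus above every vehicle library, and this held for both genes that follow. Ndufa11, an accessory membrane subunit, had 1046 to 1172 with vehicle (median 1093) and 1186 to 1338 with lithium (median 1224), a log2 fold change of 0.16 ± 0.04 (limma, adjusted p = 0.0105). Ndufv2, the core subunit that carries an iron-sulfur cluster beside the NADH site, had 2007 to 2320 (median 2230) and 2404 to 2792 (median 2466), a log2 fold change of 0.19 ± 0.05 (limma, adjusted p = 0.0205). The call of Ndufv2 was lost without WT vehicle male 5, its lowest library (limma, adjusted p = 0.0501), and that of Ndufb6 without the libraries with high olfactory bulb markers (0.0574).

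The largest log2 fold changes in WT were in accessory genes. Ndufb5, of the distal arm, had 1545 to 1798 with vehicle and 1778 to 2242 with lithium, medians 1675 and 2013, a log2 fold change of 0.28 ± 0.06 (limma, adjusted p = 0.00296). Ndufc2, an accessory membrane subunit, had 924.2 to 1151 and 1124 to 1383, medians 1031 and 1253, a log2 fold change of 0.27 ± 0.05 (limma, adjusted p = 0.00296). In both genes only the ends of the groups overlapped. Ndufs4, whose loss in mice is used as a model of Leigh syndrome, had 1043 to 1492 and 1405 to 1636, medians 1282 and 1536 (log2 fold change 0.26 ± 0.06, limma, adjusted p = 0.0101).

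In Het the same genes lay close to these levels. Ndufb6 had 733.4 to 942.1 with vehicle (median 814.8) and 879 to 1069 with lithium (median 940.4), a log2 fold change of 0.22 ± 0.04 (limma, adjusted p = 0.00097). Ndufa11 had 1002 to 1264 (median 1110) and 1200 to 1344 (median 1266), with 0.20 ± 0.04 (limma, adjusted p = 0.000384). The vehicle library that reached into the lithium range was replicate 3 of the males for both, at 942.1 and 1264. Ndufa4 had the largest log2 fold change, 0.34 ± 0.07 (limma, adjusted p = 0.00184), between 2627 to 5469 with vehicle (median 3541) and 3923 to 5225 with lithium (median 4610). Here the highest of all 20 libraries was that same vehicle library, at 5469.

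**Figure D2:**
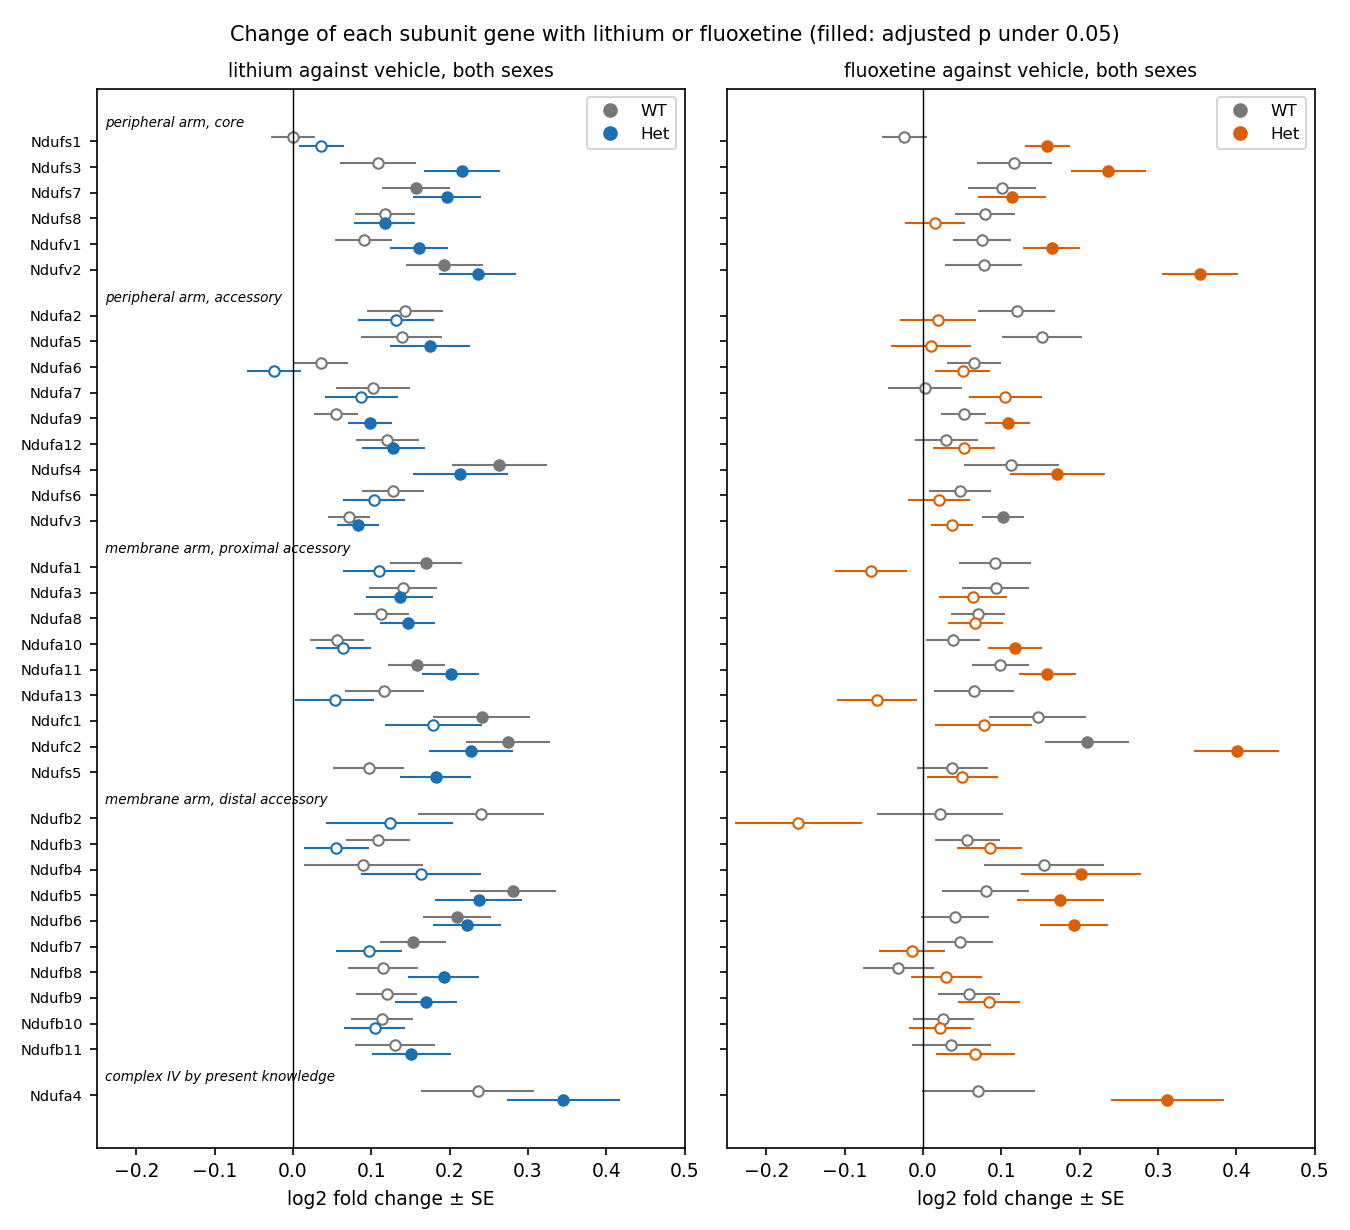
Log2 fold change ± SE of 35 of the 36 genes with lithium (left) and fluoxetine (right) against vehicle, averaged over both sexes, in WT and Het, ordered by place in the complex, with filled points at adjusted p under 0.05. With lithium all WT points and all Het points but Ndufa6 lie to the right of 0; with fluoxetine the Het points spread from -0.16 for Ndufb2 to 0.40 for Ndufc2.

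Within 1 sex, with 5 libraries a group, fewer genes passed. In WT males 0 of 36 were called with lithium by limma, edgeR and DESeq2, with 19 at an unadjusted p under 0.05 and 0.0786% of all genes called. In WT females limma and edgeR called 0, DESeq2 called 3, 17 had an unadjusted p under 0.05, and 0.118% of all genes were called by limma; the smallest adjusted p was 0.0509, for Ndufc2. Het males had 4 higher (1.44% of all genes were higher) and Het females 3 higher (0.444% of all genes). No member passed the test of a difference of the lithium response between the sexes or between the genotypes, and neither did any of the other genes tested. At an unadjusted p under 0.05 these 4 interaction tests had 0, 0, 0 and 1 members, the last for sex in Het, and edgeR and DESeq2 called none.

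In Het males the 4 genes were Ndufv1, Ndufs3, Ndufb9 and Ndufb6. Ndufv1, the core subunit that binds NADH and the flavin, had 3454, 3232, 3476, 3460 and 3538 normalized counts with lithium in replicates 1 to 5 and 2765, 2744, 3467, 2839 and 2932 with vehicle. All but 1 vehicle library, replicate 3, were below every lithium library, and the log2 fold change was 0.22 ± 0.05 (limma, adjusted p = 0.0168). Ndufs3, a core subunit of the peripheral arm, had 2251, 2076, 2273, 2363 and 2540 with lithium and 1837, 1877, 2254, 1742 and 2028 with vehicle. Again vehicle replicate 3 alone lay inside the lithium range (0.24 ± 0.07, limma, adjusted p = 0.0434). With that library left out 18 members were called in lithium-treated Het males in place of 4. The count was 0 without Het lithium male 4 or 5 or Het vehicle male 1, 2 or 4, 1 without Het lithium male 3, 2 without Het lithium male 1 and 7 without Het lithium male 2. It was 0 too with only these groups compared in the fit, so these 4 calls rest on the choice of libraries.

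Het females showed 2 genes without overlap, with no such count made over all genes tested. Ndufa11 had 1344, 1259, 1273, 1325 and 1200 with lithium and 1043, 1165, 1002, 1133 and 1119 with vehicle, a log2 fold change of 0.23 ± 0.05 (limma, adjusted p = 0.0243). Ndufc1, a small membrane subunit, had 618.5, 648.7, 684.6, 594.7 and 556.7 with lithium and 521.4, 472.9, 520.2, 485.3 and 412.7 with vehicle (0.36 ± 0.09, limma, adjusted p = 0.0311). The Het males did not share this rise: its log2 interaction of sex and lithium in Het, males less females, was -0.37, the lowest of the members. That interaction did not pass the test, and Ndufc1 was not called as the Het average. The third called gene, Ndufb5, had a log2 fold change of 0.32 ± 0.08 (limma, adjusted p = 0.0359). The count of 3 went to 0 without Het lithium female 1 or Het vehicle female 3, to 1 without Het lithium female 2 or Het vehicle female 1 or 4, and to 5 without Het vehicle female 2. With only these groups compared in the fit it was 0.

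Several measures moved beside the lithium difference. Without the 16 libraries with high olfactory bulb markers, the Het count fell from 21 to 3 (Ndufa11, Ndufb5 and Ndufv2) and its median log2 fold change from 0.14 to 0.09. The WT count fell from 10 to 5 (Ndufa11, Ndufb5, Ndufc2, Ndufs4 and Ndufv2) while its median stayed at 0.12. Without both these and the libraries with a steep length slope, the counts were 10 in Het and 6 in WT, with medians of 0.16 and 0.12. The fits then held fewer libraries: Het vehicle males kept only replicates 3 and 5 in the first case and only replicate 5 in the second, where that library is assumed to vary like the other groups. The 9 olfactory bulb markers had none called with lithium, with median log2 fold changes of -0.33 in WT and -1.36 in Het. Their summed level ran from 3568 to 17590 with vehicle and 2981 to 21820 with lithium in WT, and from 2608 to 30040 and 1753 to 10160 in Het. Eomes was at 0 in 1 library and Tbx21 in 3. Their part in the result was not tested otherwise.

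Erythrocyte markers differed as well. Of 5 erythrocyte markers, 3 rose with lithium in WT and 4 in Het, with median log2 fold changes of 0.69 and 0.77. Their summed level was 4630 to 7350 with vehicle and 6627 to 15250 with lithium in WT, and 3252 to 8797 and 3525 to 14390 in Het. Of the 10 neuron markers 1 rose in each genotype, and in Het 2 of 8 endothelial, 2 of 8 microglial and 1 of 8 astrocyte markers fell. The part of these in the result was not tested, and the share of all genes that fell is not given. The length slope had a median of 0.02 with vehicle in each genotype, and of 0.001 with lithium in WT and -0.008 in Het. With the length trend of each library removed, 9 members were called in WT and 16 in Het, at median log2 fold changes of 0.09 and 0.12, and all were among those called before.

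**Figure D3:**
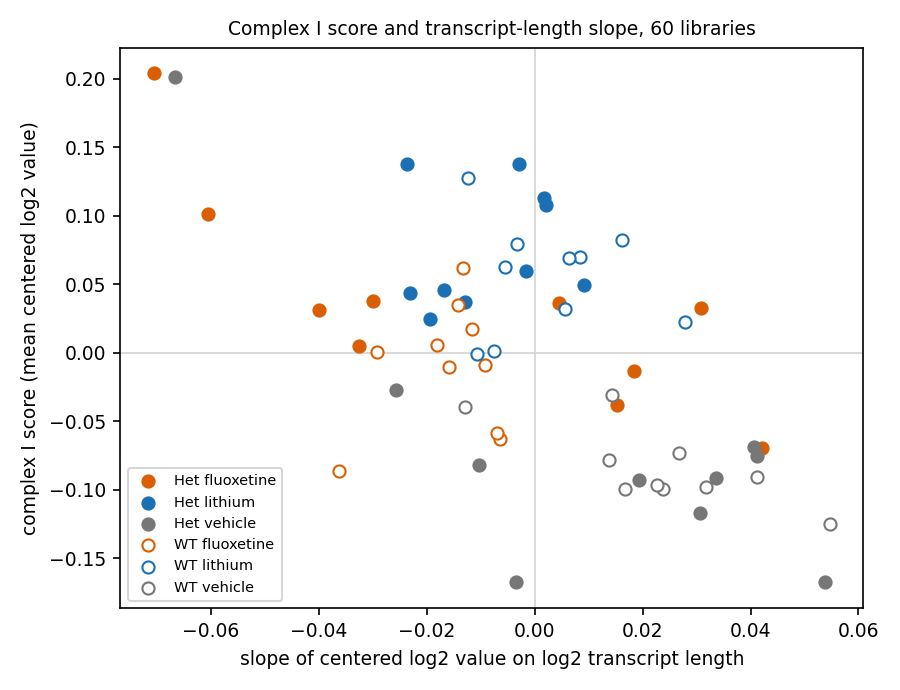
Complex I score of each of the 60 libraries against its slope of centered log2 value on log2 transcript length, by genotype and treatment. The score was lower where the slope was higher, with a Pearson correlation of -0.619 over the 60 libraries and -0.628 for deviations from group means. Het vehicle male 3 and Het fluoxetine female 2 lie at the upper left, with slopes of -0.07 and scores of 0.20; the WT lithium libraries, at -0.0007 to 0.13, lie above the WT vehicle libraries, at -0.13 to -0.03, while their slopes overlap.

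Other nuclear genes of the respiratory chain moved with complex I under lithium. Of 39 tested genes for complexes II to V, 18 rose in WT and 27 in Het, and none fell. Cyc1, cytochrome c1 of complex III, rose by log2 fold changes of 0.16 in WT and 0.19 in Het (limma, adjusted p = 0.00296 and 5.18e-05). Sdhd, a membrane anchor of complex II, rose by 0.24 in Het (limma, adjusted p = 2.51e-05). Atp5g3, which encodes the c subunit of the ATP synthase ring, rose by 0.16 in WT (limma, adjusted p = 0.00115). The list's score by library was -0.15 to -0.03 with vehicle and 0.0005 to 0.12 with lithium in WT, again without overlap.

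Other genes of complex I biology were tested beside the members. Of 17 assembly factor genes, only Ndufaf4 rose, by 0.23 in WT and 0.21 in Het (limma, adjusted p = 0.0495 and 0.0444). None of the 7 subunits encoded in mitochondrial DNA was called with lithium in either genotype. Ndufab1, the acyl carrier protein that sits in both arms and lies outside the naming rule, rose by 0.21 in WT (limma, adjusted p = 0.0265). Of 15 genes for regulators of mitochondrial biogenesis none was called in WT, and Gabpa, an ETS-family factor, fell by 0.16 in Het (limma, adjusted p = 0.0491). None of 42 cytosolic ribosomal protein genes was called with lithium in either genotype, with 11 in WT and 4 in Het at an unadjusted p under 0.05 in limma. Their log2 fold changes were nonetheless mostly positive, 40 of 42 in WT and 33 of 42 in Het, with medians of 0.08 and 0.05. Their score by library ran from -0.14 to -0.006 with vehicle and from -0.07 to 0.15 with lithium in WT, ranges that overlapped. In Het it ran from -0.16 to 0.23 with vehicle and from -0.07 to 0.06 with lithium.

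Since the genes moved together, their promoters were searched for short motifs of factors known to bind genes of the respiratory chain. RefSeq promoter windows (GRCm38.p6, 250 bases before to 50 after the annotated start) matched 32 of the 36 genes. Each motif was searched as exact letters on both strands, and the same was done for 32851 windows of that length. The YY1 core AAGATGG was in the windows of 7 members, 21.9% against 6.34% of all windows. The NRF1 core CGCATGCG was in 2 (6.25% against 1.87%), the ETS core CCGGAAG of GABPA in 4 (12.5% against 8.86%) and the ERR half-site AAGGTCA in 3 (9.38% against 4.72%). A match describes the sequence and does not show binding.

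All 7 YY1 matches lay on the gene's own strand, 22 to 38 bases after the annotated start, counted with the start base as 0. They are shown for this shared place. Each line below is 30 bases, 5′ to 3′ on the gene's strand, with the match in capitals.
Ndufa3, plus strand, chr7:3617384-3617413: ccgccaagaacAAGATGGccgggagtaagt
Ndufa9, minus strand, chr6:126849097-126849126: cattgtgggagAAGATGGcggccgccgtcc
Ndufb8, minus strand, chr19:44555393-44555422: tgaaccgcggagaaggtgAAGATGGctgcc
Ndufc1, minus strand, chr3:51408915-51408944: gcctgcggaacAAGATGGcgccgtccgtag
Ndufs4, minus strand, chr13:114388045-114388074: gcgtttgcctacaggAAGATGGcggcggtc
Ndufs6, minus strand, chr13:73328433-73328462: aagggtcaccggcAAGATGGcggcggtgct
Ndufs7, plus strand, chr10:80249462-80249491: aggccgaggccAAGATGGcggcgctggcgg

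The motif contains an ATG, and whether these are start codons was not examined. Of the 7 genes, Ndufc1, Ndufs4 and Ndufs7 rose with lithium in WT and Ndufa3, Ndufa9, Ndufb8, Ndufs4 and Ndufs7 in Het, while Ndufs6 was called in no comparison. Both NRF1 matches lie before the start, beginning 59 bases before it in Ndufa11 and 9 before it in Ndufa8. They are shown because Ndufa11 had no overlap between lithium and vehicle in WT, and Ndufa8 was called in Het with lithium, not in WT.
Ndufa11, plus strand, chr17:56717692-56717721: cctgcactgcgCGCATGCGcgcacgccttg
Ndufa8, minus strand, chr2:36049329-36049358: gtcgctggagaCGCATGCGcagatggtacc

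With fluoxetine the 2 genotypes gave different counts. In WT, averaged over both sexes, 2 of 36 members rose, with 3.14% of all genes higher, and in Het 15 of 36 rose, with 16.9% of all genes higher. Lithium and fluoxetine share the vehicle libraries, so their differences are not independent. In WT the 2 genes were Ndufc2 and Ndufv3, a small accessory subunit beside the NADH site, with log2 fold changes of 0.21 ± 0.05 (limma, adjusted p = 0.00872) and 0.10 ± 0.03 (limma, adjusted p = 0.0102). The call of Ndufv3 was lost with the length trend removed (limma, adjusted p = 0.15), and 4 members were called without WT fluoxetine female 4. The median log2 fold change of the 36 was 0.07 in WT and 0.08 in Het, so the typical member moved alike in size, while the spread around it was wider in Het, from -0.16 for Ndufb2 to 0.40 for Ndufc2.

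In Het most core genes were called: 6 of 7 rose, among them Ndufs1, Ndufs3, Ndufv1 and Ndufv2, beside 2 of 9 accessory genes of the peripheral arm (Ndufa9 and Ndufs4), 3 of 9 in the proximal membrane arm (Ndufa10, Ndufa11 and Ndufc2) and 3 of 10 in the distal arm (Ndufb4, Ndufb5 and Ndufb6), and Ndufa4. The difference between these shares was not tested. Ndufv2 had 1817 to 2884 with vehicle (median 2182) and 2346 to 3100 with fluoxetine (median 2846), a log2 fold change of 0.35 ± 0.05 (limma, adjusted p = 3.07e-07). Ndufc2 had 928.9 to 1229 (median 979.5) and 1039 to 1580 (median 1369), the largest of the 36 at 0.40 ± 0.05 (limma, adjusted p = 1.85e-07).

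The overlap of the groups can be seen within each sex. Ndufc2 in Het males had 1261, 1249, 1460, 1369 and 1253 with fluoxetine and 933.1, 953.8, 1229, 954.7 and 1079 with vehicle, so that all fluoxetine libraries were above all vehicle libraries (0.36 ± 0.08, limma, adjusted p = 0.000708). In Het females it had 1039, 1580, 1501, 1415 and 1369 with fluoxetine and 1127, 1035, 928.9, 987.9 and 971.2 with vehicle. There fluoxetine replicate 1 lay among the vehicle libraries and the other 4 lay above them (0.44 ± 0.08, limma, adjusted p = 0.000116). The test of a difference between the sexes called no member in either genotype by limma, edgeR or DESeq2, with 0 in WT and 3 in Het at an unadjusted p under 0.05; it called 0% of all genes in WT and 0.0112% in Het.

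Within each sex of Het, 8 members were called in males, 7 higher and 1 lower, and 9 in females, all higher. Of all genes tested, 22.7% were called in either direction in Het males and 7.08% were higher in Het females. The share of members called in Het males lay near that of all genes. Ndufs1, Ndufs3, Ndufv2 and Ndufc2 were called in both sexes of Het. In WT males and WT females limma called 0 of 36, with 6 and 8 at an unadjusted p under 0.05; edgeR called 0 in both, and DESeq2 called 1 in males and 0 in females. Of all genes 1.34% were called in WT males and 2.50% in WT females. In Het males the count was 14 without vehicle replicate 3 and 6 at the fewest with another library left out. In WT males it was 1 without fluoxetine replicate 1 or vehicle replicate 1. The Het male count was 1 (Ndufc2) with only those groups compared in the fit, and 0 without the libraries with high olfactory bulb markers. The latter fit left out Het vehicle males 1, 2 and 4 and kept replicate 3 among its few controls.

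**Figure D4:**
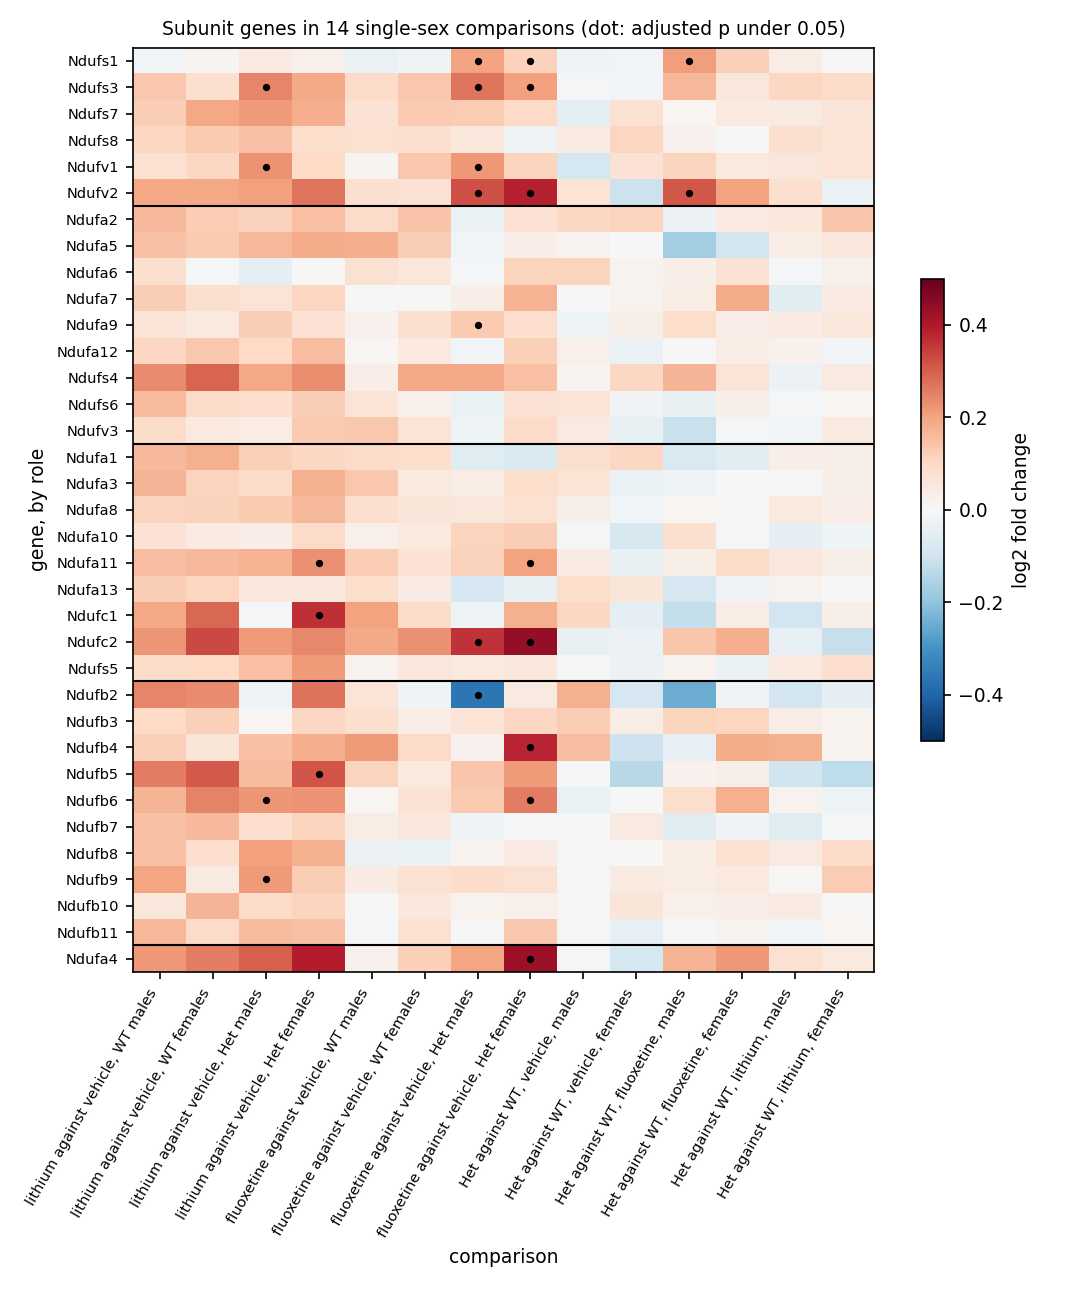
Log2 fold change of 35 of the 36 genes in the comparisons within 1 sex, by place in the complex, with called genes marked. Lithium columns are of 1 colour through nearly all genes, whereas the fluoxetine columns of Het set the core genes and Ndufc2 apart from Ndufb2, which fell in Het males.

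Ndufb2 was the only member that fell with a drug in any comparison with vehicle. It encodes a small accessory subunit of the distal membrane arm. The fall was called in Het males with fluoxetine, where 22.7% of all genes were called in either direction. The share of all genes that fell there is not given. In Het males Ndufb2 had 711.5, 971.4, 586.1, 758.3 and 727.6 with fluoxetine and 955.3, 1080, 1164, 893.4 and 733.7 with vehicle. The groups overlapped through fluoxetine replicate 2 and vehicle replicate 5, and the log2 fold change was -0.36 ± 0.11 (limma, adjusted p = 0.0177). The call was lost without fluoxetine replicate 3 (adjusted p = 0.105), vehicle replicate 2 (0.0607) or vehicle replicate 3 (limma, 0.064). Averaged over both sexes its log2 fold change in Het was -0.16, and it did not pass the test.

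The genotypes were also compared under fluoxetine, with the same Het fluoxetine libraries as above. Averaged over both sexes, 4 of 36 members were higher in Het than in WT, among them Ndufs1, Ndufv2 and Ndufb6, against 3.45% of all genes higher. Ndufs1 encodes the subunit with the most iron-sulfur clusters. In fluoxetine-treated males it had 4600, 4709, 5032, 4280 and 5212 in Het and 4021, 4270, 4021, 4049 and 4200 in WT. The lowest Het library, at 4280, was just above the highest WT library, at 4270, and the log2 difference was 0.21 ± 0.04 (limma, adjusted p = 0.00314). With vehicle the males of both genotypes had means of 4143 ± 172 in Het and 4203 ± 41.8 in WT (SD, n = 5), close together.

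Ndufv2 separated the same way. In fluoxetine-treated males it had 2686, 3064, 2877, 2928 and 2904 in Het and 2258, 2405, 2173, 2490 and 2335 in WT. No libraries overlapped, and the log2 difference was 0.31 ± 0.07 (limma, adjusted p = 0.0125). In males 3 members were called, among them these 2 genes, where 0.539% of all genes were higher. In females 0 of 36 were called by limma, edgeR and DESeq2, with 7 at an unadjusted p under 0.05, and 0.0393% of all genes were called. With only the 2 groups compared in the fit, the count in males was 0, and it was 1, Ndufs1, without WT fluoxetine male 1 or 3. Averaged over both sexes, Ndufs1 stayed called without the libraries with high olfactory bulb markers, and Ndufv2 alone with only those groups in the fit.

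One member passed the test that the fluoxetine response itself differed between genotypes. In males Ndufs1 had a log2 interaction of 0.23 ± 0.06 (limma, adjusted p = 0.039), with an interval of 0.12 to 0.35, where 0.337% of all genes were higher. This is the difference between a rise of 0.20 ± 0.04 in Het males (limma, adjusted p = 0.00047) and a small difference in WT males, whose 5 fluoxetine libraries overlapped the 5 vehicle libraries at 4181, 4242, 4200, 4146 and 4245. The call did not hold with quantile normalization (adjusted p = 0.0943), with the libraries rescaled to the same total (0.133), with only the groups compared in the fit (0.175), or without the libraries with high olfactory bulb markers (limma, adjusted p = 0.549). It was also lost when any 1 of 12 of the 20 libraries was left out: Het fluoxetine male 3 or 5, Het vehicle male 1, 2 or 4, WT fluoxetine male 1, 3 or 4, or WT vehicle male 1, 2, 3 or 4. Without Het vehicle male 3 or WT fluoxetine male 5 the count was 3. In females no gene at all was called, and 4 members had an unadjusted p under 0.05; edgeR and DESeq2 called no member there.

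**Figure D5:**
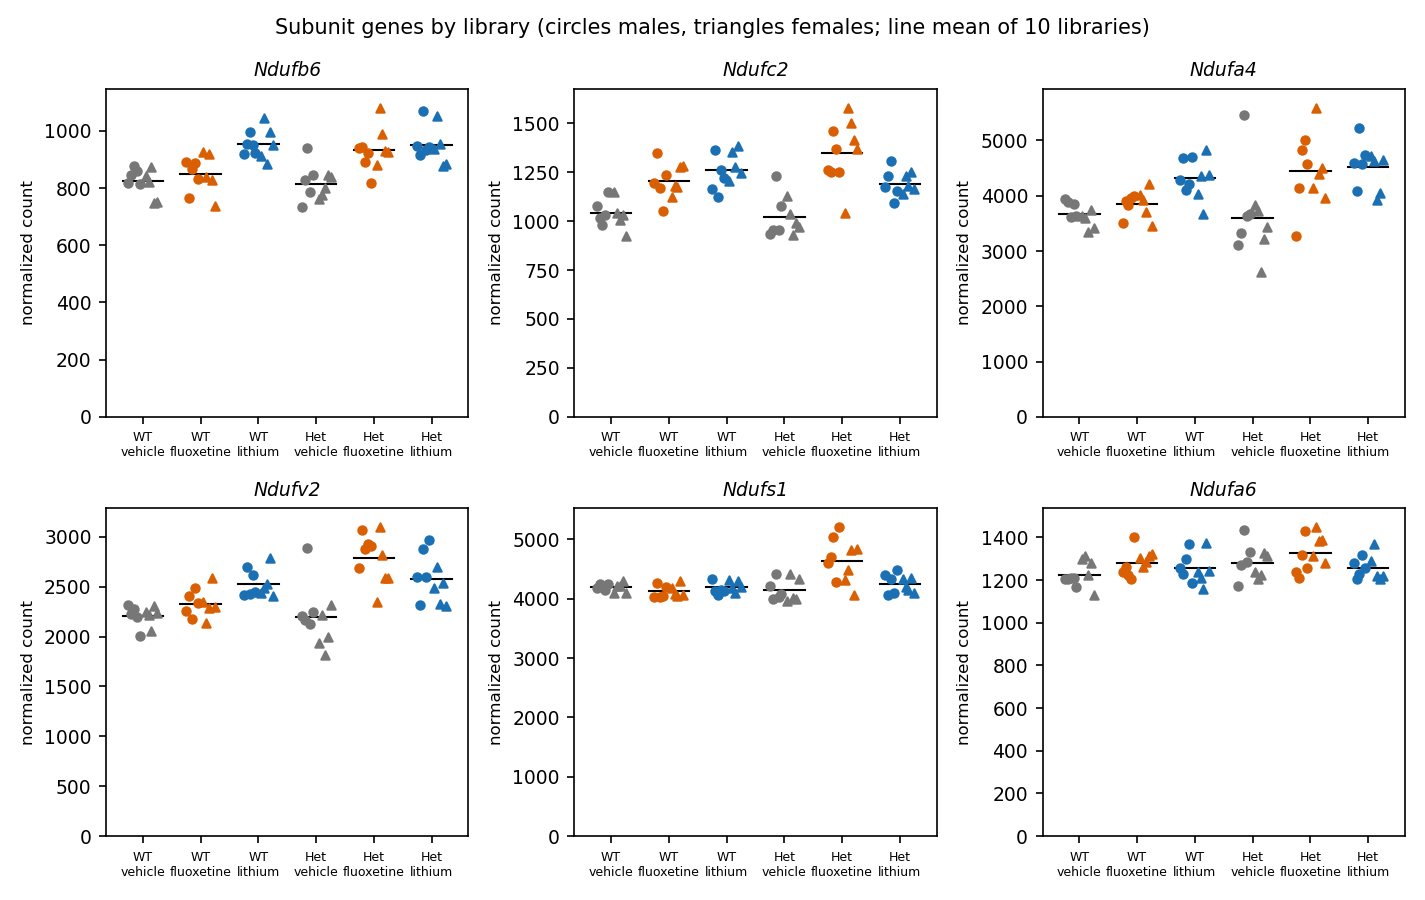
Normalized counts of 6 genes in each of the 60 libraries by genotype and treatment (circles males, triangles females, line at the mean of 10 libraries), with each axis from 0. Ndufb6 is higher in lithium libraries of both genotypes, Ndufs1 is highest in Het fluoxetine libraries, up to 5212, Ndufc2 is highest in Het with fluoxetine, and Ndufa6 keeps 1 level.

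Beside the fluoxetine difference in Het, markers of several cell types moved too. Of the leptomeningeal markers 5 of 7 fell, as did 5 of 8 endothelial, 4 of 8 microglial and 3 of 8 astrocyte markers. The share of all genes that fell is not given. Of the neuron markers 3 of 10 rose, and of the oligodendrocyte markers 2 of 12, where 16.9% of all genes were higher. The oligodendrocyte share lay near that of all genes. No olfactory bulb marker was called, at a median log2 fold change of -0.41, but their summed level ran from 1617 to 16900 with fluoxetine and 2608 to 30040 with vehicle. Their part in the result was not tested beyond leaving libraries out. The length slope was lower with fluoxetine in both genotypes. In WT it ran from -0.04 to -0.006 with fluoxetine (median -0.01) and from -0.01 to 0.05 with vehicle (median 0.02), so that all 10 fluoxetine libraries were below 0. In Het it ran from -0.07 to 0.04 (median -0.01) and from -0.07 to 0.05 (median 0.02). With the length trend of each library removed, the median log2 fold change of the 36 genes was 0.02 in WT, with 1 higher, and 0.05 in Het, with 13 higher and 1 lower. Without the 16 libraries with high olfactory bulb markers 5 members were called in Het in place of 15, among them Ndufc2, Ndufs1, Ndufs3 and Ndufv2, and the median log2 fold change was 0.03. Without these and the libraries with a steep length slope it was 0.07, with 6 called.

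Of all genes tested, 16.9% were higher with fluoxetine in Het and 3.14% in WT. Among the rest of the respiratory chain, 13 of 39 genes for complexes II to V rose with fluoxetine in Het and 3 in WT. They were led in Het by Uqcrc2, a core protein of complex III, at a log2 fold change of 0.27 (limma, adjusted p = 1.9e-06) and Atp5a1, the catalytic-head alpha subunit of ATP synthase, at 0.21 (limma, adjusted p = 2.69e-06). Of the assembly factors Acad9, Ndufaf1 and Ndufaf5 rose in Het, by 0.11, 0.15 and 0.18 (limma, adjusted p = 0.00932, 0.0103 and 0.0492). The share of assembly factors that rose there lay near that of all genes. Among the subunits encoded in mitochondrial DNA, mt-Nd3 rose in WT by 0.51 (limma, adjusted p = 0.00169) and mt-Nd6, the one encoded on the other strand of that DNA, fell in Het by 0.63 (limma, adjusted p = 0.000392). Ribosomal protein genes also moved, with 8 of 42 higher in WT and 14 higher and 1 lower in Het.

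Regulators of mitochondrial biogenesis went in both directions with fluoxetine. Ppargc1b and Pprc1, coactivators of the PGC-1 family, fell in both genotypes, Ppargc1b by 0.65 in WT and 0.43 in Het and Pprc1 by 0.38 and 0.43 on the log2 scale. The related Ppargc1a rose by 0.20 and the nuclear receptor gene Esrrg by 0.30 in Het. Nrf1, whose product binds many respiratory chain promoters, rose by 0.18 in WT. All of these passed the limma test at an adjusted p under 0.05 in the genotypes named.

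The drugs were compared with each other directly, without the vehicle libraries. In WT, 3 of 36 members were higher with lithium than with fluoxetine, all of the distal membrane arm: Ndufb5, Ndufb6 and Ndufb8, by 0.20, 0.17 and 0.15 (limma, adjusted p = 0.0151, 0.0089 and 0.0332), where 4.78% of all genes were higher. In Het 7 were higher with lithium (Ndufa1, Ndufa5, Ndufb2, Ndufb7, Ndufb8, Ndufs5 and Ndufs8), where 12.6% of all genes were higher, and 3 were lower, among them Ndufc2 and Ndufs1, where 12.4% were lower. Ndufs1 had 4059 to 4485 with lithium (median 4261) and 4065 to 5212 with fluoxetine (median 4655) in Het, a log2 difference of -0.12 (limma, adjusted p = 0.00105). Ndufb2 had 727.2 to 1134 (median 1011) with lithium and 586.1 to 997.1 (median 753.8) with fluoxetine, a difference of 0.28 (limma, adjusted p = 0.00719).

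In no comparison at all were 7 members called: Ndufa2, Ndufa6, Ndufa7, Ndufa13, Ndufb3, Ndufb10 and Ndufs6. Within 1 sex, 21 members were called in none of the 14 comparisons. Ndufa2, an accessory subunit with a thioredoxin-like fold, had 703.6 to 827.6 with vehicle and 770.8 to 896.3 with lithium in WT, and 691.3 to 970.7 and 832.1 to 977.4 in Het. Medians were 750.7 and 833.8 in WT and 808.1 and 898.4 in Het, and all 4 ranges overlapped with their partner. Ndufa13, also known as a growth-suppressing protein named GRIM-19, had 1697 to 2055 with vehicle, 1808 to 2172 with lithium and 1763 to 2066 with fluoxetine in WT, groups that largely overlapped.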

How the data were processed

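RNA from prefrontal cortex was sequenced as 60 libraries, prepared with a stranded mRNA kit per the labels' protocols. The deposited table gives, per gene and library, a signal that is reads divided by a library scaling factor: 100% of values came out as whole reads at a tolerance of 0.001. Salmon 0.11.2, R 3.6.0, DESeq2 1.19.11 and GRCm38 are named in the submitters' processing notes, without their roles. Samples were grouped by title. Genes with at least 10 normalized counts in at least 5 libraries were tested (17807 of 18088), with log2(value + 1) and limma 3.58.1 (intensity trend, 1 mean per group over all 60 libraries, two-sided) in R 4.3.3. Fold changes on this scale understate the change of low genes. Adjusted p-values are Benjamini-Hochberg within a comparison over all genes tested, called under 0.05. The code was tested on simulated data. Alternatives were a pseudocount of 10, no filter, quantile normalization, rescaling to the same total, edgeR 4.0.16 and DESeq2 1.42.0 on the recovered reads, only the groups compared, a replicate block, a length trend removed per library, and each library left out. The alternatives without libraries of high olfactory bulb score or steep length slope, and the 2 comparisons of lithium with fluoxetine, were added after seeing the data. The members and lists were chosen with earlier results of these data known. Every gene matching the naming rule could be named. The values of 1 member are not reported here; it is kept in the counts and scores. Values by library are given for those called in the most comparisons within 1 sex, for up to 3 called in none, and, chosen after their values were seen, for others named by library. Of the other lists up to 4 genes with the smallest p were named. Replicates differed by 4.12 to 70 times counting noise (chi-square per degree of freedom, 120 pairs), so none was counted as a duplicate. Gene lengths and positions came from GENCODE M21.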

Additional observations from a re-analysis of the deposited data

Results flagged for a closer look

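These values stood far from the other 4 libraries of their group, with a gap larger than Dixon's 95% limit allows for 5 samples. Over the 36 genes and the complex I score, 34 of 444 sets of 5 libraries held such a value, or 7.66%. Chance gives about 1 in 20 for independent sets. The members varied together, with a median correlation of 0.416 within groups, so these rates cannot be compared directly. Replicate 3 of the Het vehicle males held 9 of the 34. Its complex I score of 0.201 stood above the other 4, and so did Ndufa13 at 2340 normalized counts, Ndufa4 at 5469, Ndufv1 at 3467 and Ndufv2 at 2884. Het fluoxetine female 2 held 3 of them, among them Ndufb5 at 2150, above the other 4 libraries.

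Of the other genes given by library, Ndufb6 stood high in Het lithium male 3 at 1069 and Ndufv1 stood low in Het lithium male 2 at 3232. Ndufa6 was low in WT vehicle male 5 at 1170. Ndufs1 differed between the genotypes in its response to fluoxetine in males, by an interaction of 0.23 on the log2 scale that passed the limma test. That call was lost under several alternatives, among them quantile normalization, and when some single libraries were left out.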

How the results depend on the processing

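Directions of the single genes called in the main fit never turned: 2252 of their alternative values kept the call and 454 lost it. Directions of members not called there were not followed. With 1 library left out, up to 1 member was called lower with fluoxetine in Het as the average. The same held for Het against WT under fluoxetine as the average. No member was called lower in these comparisons with all libraries. Alternatives that leave out libraries or groups fit the spread on fewer libraries. Shares of all genes called are not given for the alternatives, so their counts of members cannot be set against a background. Other causes of the changes were not tested. Each group had 5 libraries, and the lowest member value was 256 normalized counts, so low reads limit these genes little.

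With only the groups compared in the fit, counts of called members were 26 for lithium in WT (10 with all groups), 13 in Het (21) and 2 in WT females (0), and among Het mice of 1 sex 0 in males (4) and 0 in females (3). For fluoxetine they were 4 in WT (2) and 1 in Het males (8), and for Het against WT under fluoxetine 1 as the average (4) and 0 in males (3). The male genotype interaction with fluoxetine went from 1 to 0, and lithium against fluoxetine in Het from 10 to 5. DESeq2 called 16 for lithium in WT, 3 among WT females, 7 among Het males, 7 among Het females, and 1 for fluoxetine in WT males. Quantile normalization gave 4 for fluoxetine in WT, 1 in WT males, and 0 for the interaction. Rescaling to the same total, which moved the median of all genes by up to 0.06, gave 2 for lithium in WT females, 6 in Het females and 19 for lithium against fluoxetine in Het. With the length trend removed the counts were 1 for lithium in WT females, 1 for fluoxetine in WT, 8 for Het against WT under fluoxetine and 6 for lithium against fluoxetine in WT.

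Without the libraries with high olfactory bulb markers the counts were 5 for lithium in WT, 3 in Het, 0 among Het males, 7 among Het females. For fluoxetine they were 1 in WT, 5 in Het, 0 among Het males, 3 among Het females, with 2 for Het against WT under fluoxetine, 0 for the interaction and 6 for lithium against fluoxetine in Het. Without the libraries of steep length slope they were 7 for lithium in Het males, 8 in Het females, 1 for fluoxetine in WT males and 20 for lithium against fluoxetine in Het. Without both they were 6 for lithium in WT, 10 in Het, 0 among Het males, 8 among Het females. Also without both they were 6 for fluoxetine in Het and 0 in Het males, 2 for Het against WT under fluoxetine, 1 in males and 0 for the interaction.

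With each library left out in turn, lithium counts ran from 6 (without WT vehicle male 5) to 16 (without WT lithium male 5) in WT, from 14 (without Het vehicle female 3) to 30 (without Het vehicle male 3) in Het, from 0 to 18 among Het males and 0 to 5 among Het females. Fluoxetine counts ran from 2 to 4 in WT, 0 to 1 in WT males, 12 to 19 in Het, 6 to 14 among Het males and 7 to 11 among Het females. Het against WT under fluoxetine ran from 3 to 6 as the average and from 1 to 3 in males, the interaction from 0 to 3, and lithium against fluoxetine from 2 to 4 in WT and 7 to 14 in Het.

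Replicate numbers did not pair the libraries: over 330 pairs with the same number in different groups, deviations from the group means had a median correlation of 0.00112 (-0.276 to 0.295), and 21.2% of 660 best matches had their own number. With the replicate number as a block, the count was 1 for fluoxetine in WT males, 3 for lithium in WT females, 10 for lithium in WT and 22 in Het.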
